A study of Mus musculus with 6 samples.

Results

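The genes described here are components and regulators of the complement system in Mvt1 cells, a mouse mammary carcinoma line of the FVB/N strain. The set held 9 genes: the central components C3, C4b and Cfb, the C1 proteases and their relative C1ra, C1s and C1rl, and the inhibitors Serping1, Cd55 and Cd59a. At least 1 annotated read was found for 7 of these 9 genes, out of 14767 annotated genes in all. The set was chosen by the measured difference between CD24+ and CD24- libraries, in which C3 stood out, so the values of its members in that contrast are a description and carry no test.

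FACS on CD24, a glycoprotein held on the cell surface by a lipid anchor, gave the CD24- and CD24+ populations. Both groups grew as adherent cultures in DMEM with 10% fetal bovine serum, and neither received any other treatment or allele that the labels name. Messenger RNA was sequenced from 3 plates of each group. No independent sorts were described for the plates, so SDs and p-values here reflect how plates within a sorted group varied, and a difference tied to CD24 cannot be told apart from any other that arose between the sorted groups.

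Complement is a cascade of plasma and membrane proteins that tags and lyses target cells. The classical pathway starts with C1, in which the protease C1r cleaves C1s and C1s cleaves C4 and C2; the lectin pathway reaches the same point through MASP proteases; the alternative pathway amplifies deposited C3b with factor B. All of them converge on cleavage of C3, and inhibitors in the fluid and on the host membrane hold them in check. The liver makes most plasma complement, while epithelial cells, fibroblasts and macrophages make their own, and inflammatory cytokines are known to raise it.

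The libraries held between 9046025 and 25692147 mapped reads, of which 71.8% to 74.3% were annotated to a gene. Levels are given as CPM, counts scaled to the gene reads of a library after TMM correction, and log2 fold-changes are of CD24+ over CD24-. Cd24a, the gene of the sorted marker, averaged 77.1 ± 7.31 CPM over the CD24+ and 10.2 ± 2.79 CPM over the CD24- libraries (SD, n = 3 each). Across the series edgeR's quasi-likelihood test (Benjamini-Hochberg adjusted p below 0.05, here "called") called 5130 of 11125 tested genes, or 46.1%. Calls of a higher level in CD24+ cells made up 23.8% of the tested genes and calls of a lower level 22.3%.

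The reads themselves show what could be told apart from near-identical copies. Each line gives the most frequent coding read of a member, 5′ to 3′ on the strand of the gene, as deposited at its mm9 position, and for C1ra and C1s the matching stretch of the copy C1rb or C1s2 from the GENCODE M21 transcripts. These sequences are shown because they decide which reads belong to C1ra and C1s alone, and capitals mark the bases that differ between a gene and its copy.
C3, exon 26, chr17:57354133-57354179: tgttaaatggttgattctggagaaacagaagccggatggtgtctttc
C1ra, exon 7, chr6:124467766-124467812: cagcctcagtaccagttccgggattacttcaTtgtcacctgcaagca
C1rb, same stretch: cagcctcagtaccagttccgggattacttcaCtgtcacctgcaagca
C1s, exon 12, chr6:124481423-124481469: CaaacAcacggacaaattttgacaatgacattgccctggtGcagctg
C1s2, same stretch: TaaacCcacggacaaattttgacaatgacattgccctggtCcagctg
C1rl, exon 6, chr6:124458835-124458881: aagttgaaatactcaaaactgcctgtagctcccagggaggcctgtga
The C3 read occurred 6 times, 5 of them in CD24+ libraries. The C1ra read occurred 14 times, 11 of them in CD24+ libraries, and differed from C1rb at 1 base. The C1s read occurred 8 times, all in CD24+ libraries, and differed from C1s2 at 3 bases.

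C3, the component on which all complement pathways converge, had 5, 8 and 1 reads in CD24- replicates 1, 2 and 3 and 166, 380 and 497 reads in CD24+ replicates 1, 2 and 3. In CPM these were 0.526, 0.758 and 0.113 against 26.1, 21.5 and 26.0. Every CD24+ library lay far above every CD24- library, and the CD24+ libraries were close to each other. The mean was 24.5 ± 2.67 CPM against 0.466 ± 0.327 CPM (SD, n = 3 each), so that CD24- cells held C3 transcript at 1.90% of the CD24+ level. The fitted log2 fold-change was 5.63 (standard error 0.29), or 49.6-fold. In RNA from whole plates, fewer cells that make a transcript and less transcript per cell cannot be told apart.

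By log2 fold-change C3 ranked 10 of 11125 tested genes. The 9 genes above it had between 1.57 and 6.33 CPM in CD24+ cells, and among the 9324 genes whose average log2 CPM reached 3, C3 ranked 1. The ratio rests on 14 CD24- reads, and the single read in CD24- replicate 3 has an exact 95% Poisson interval of 0.00285 to 0.628 CPM (counting error only). Without that library the log2 fold-change was 5.21, and without CD24- replicate 2, which held 8 of the 14 CD24- reads, it was 6.18. An estimate after the study's own steps, the median coverage along the transcript with a regularizer of 10, gave C3 a log2 fold-change of 0.21 and C1rl one of 0.14. In that estimate the median coverage of C3 was 0 in each CD24- library and at most 4 in a CD24+ library.

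C3 reads covered the whole transcript. Of the 1057 annotated reads, 99.3% matched a C3 transcript exactly and none matched another gene, and 97.9% lay wholly within the coding sequence. All 41 exons held reads in CD24+ cells, and 12 of the 41 held reads in CD24- cells. With the transcript cut into 10 equal parts, each part held between 5.21% and 13.4% of the CD24+ reads, with 10.1% in the first and 8.88% in the last. Few reads were repeats of one sequence, with 1.13 reads per distinct sequence and library in CD24+ cells and 1.00 in CD24- cells.

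**Figure D1:**
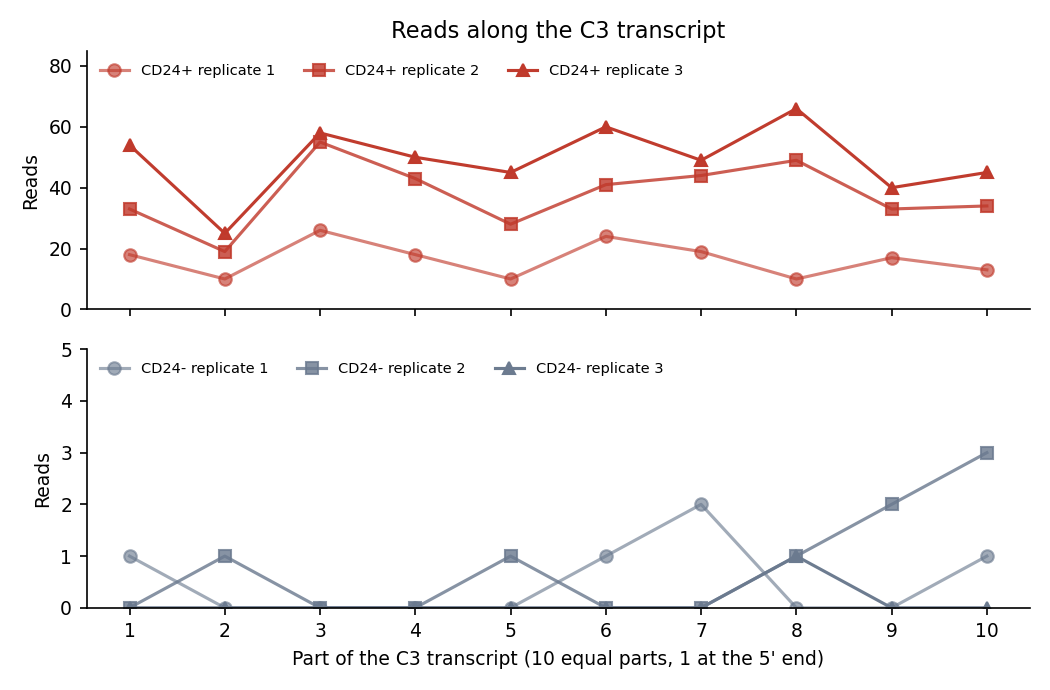
Reads in 10 equal parts of the C3 transcript, from the 5′ end (part 1) to the 3′ end (part 10), for each library, with CD24+ libraries above and CD24- libraries below on separate axes. Every part held at least 10 reads in each CD24+ library and at most 3 reads in any CD24- library.

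C4b and Cfb, the partners of C3 in the classical and alternative convertases, had few reads. C4b had 2, 3 and 4 reads in CD24- replicates and 1, 8 and 6 reads in CD24+ replicates, and the groups overlapped, at 0.315 ± 0.123 and 0.308 ± 0.147 CPM (SD, n = 3 each). It had too few reads to be tested. Of its 24 reads, 17 also matched C4a and none matched C4b alone, so that C4b transcript was not detectable apart from C4a at this depth. C4a shares 37.1% of the 47-base windows of the C4b transcript. A further 38 reads were annotated C4a, and 76.3% of them matched C4a alone.

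Cfb, factor B, had 15, 15 and 17 reads in CD24- replicates and 17, 38 and 47 in CD24+ replicates. The means were 1.64 ± 0.253 and 2.43 ± 0.266 CPM, the groups did not overlap, and the log2 fold-change was 0.55 (standard error 0.26), under the call threshold. However, only 34.9% of its 149 reads matched an annotated Cfb transcript, and the other 97 reads lay in no transcript of the gene. Of the 52 reads in Cfb transcripts, 8 matched no other gene. The Cfb value is therefore uncertain.

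The C1 proteases included the most abundant member. C1ra, the mouse C1r of this cluster, had 32.3, 39.7 and 24.0 CPM in CD24- replicates and 67.3, 50.5 and 72.4 CPM in CD24+ replicates. All CD24+ libraries were above all CD24- libraries, though the distance from the highest CD24- to the lowest CD24+ library was small. The log2 fold-change was 0.98 (standard error 0.18), with 63.4 ± 11.4 CPM in CD24+ cells (SD, n = 3) and 50.5% of that mean in CD24- cells. C1rb shares 49.3% of the 47-base windows of the C1ra transcript, and 56.9% of the C1ra reads matched both. On reads that matched C1ra alone, 102, 173 and 70 in CD24- and 170, 331 and 500 in CD24+ replicates, the log2 fold-change was 0.99 (standard error 0.23).

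C1s, which C1r activates, had a lower level than C1ra and a larger fitted difference, though these differences were not tested against each other. It had 3.05, 2.27 and 0.902 CPM in CD24- replicates and 11.8, 12.3 and 20.3 CPM in CD24+ replicates. The groups stood well apart, and CD24+ replicate 3 was the highest. The log2 fold-change was 2.84 (standard error 0.34), from 2.08 ± 1.09 to 14.8 ± 4.80 CPM, and it ranged from 2.50 to 3.19 with single libraries left out. Of the C1s reads 24.5% also matched C1s2, and 17.6% matched the annotated antisense transcript Gm16567, from which they cannot be told apart because the counts carry no strand. On the 420 reads that matched no gene but C1s the log2 fold-change was 2.85.

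C1rl, a C1r-like protease of the same cluster, had 3.89, 3.79 and 2.03 CPM in CD24- replicates and 8.81, 10.2 and 9.79 CPM in CD24+ replicates. The groups did not overlap, and the log2 fold-change was 1.57 (standard error 0.23). A further 99 reads on its transcript carried a repeat annotation in the deposited files and are not in these counts. Their number was 11, 9 and 6 in CD24- and 6, 34 and 33 in CD24+ replicates. Counting every read that matched this transcript alone gave a log2 fold-change of 1.43.

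The reads of C1ra, C1s and C1rl lay within 49.2 kb of chromosome 6 of mm9, at chr6:124443149-124492318, and those of C4b and Cfb within 134 kb of chromosome 17. The copies of the chromosome 6 cluster had few reads of their own. C1rb had 130 reads that matched it alone, none with a gene annotation in the deposited files, and its log2 fold-change on them was 0.69 (adjusted p = 0.156, edgeR). All 65 reads of C1s2 alone were annotated as EG317677, with a log2 fold-change of 0.17 (adjusted p = 0.815, edgeR). Neither copy was called, and the difference between a gene and its copy was not tested.

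**Figure D2:**
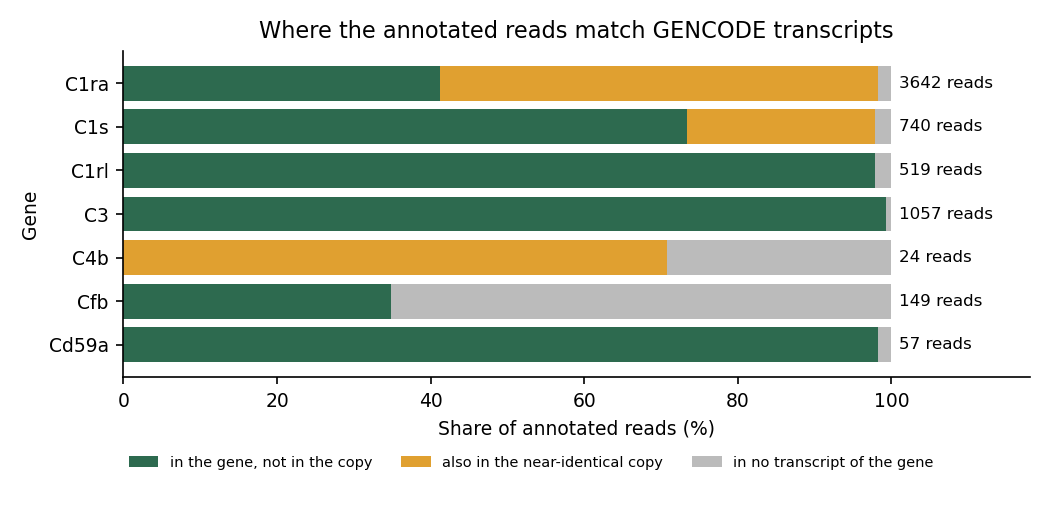
Share of the annotated reads of each member, over all 6 libraries, that matched its GENCODE transcripts but not its near-identical copy, that also matched the copy, or that matched no transcript of the gene. C3, C1rl and Cd59a reads were almost all their own, 56.9% of C1ra reads were shared with C1rb, no C4b read was its own, and 65.1% of Cfb reads lay in no Cfb transcript.

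Among the inhibitors, Serping1, which encodes the C1 inhibitor, and Cd55, which speeds the decay of convertases on the membrane, had 0 reads in all 6 libraries, by annotation and by exact match to transcripts. A count of 0 allows up to 0.157 CPM in CD24+ replicate 3, the deepest library, and up to 0.472 CPM in CD24+ replicate 1, the shallowest (3 counts, counting error only). Cd59a, which blocks the membrane attack complex, had 6, 8 and 3 reads in CD24- replicates and 7, 17 and 16 reads in CD24+ replicates, or 0.576 ± 0.215 and 0.966 ± 0.132 CPM (SD, n = 3 each). These groups did not overlap in CPM, but the reads were too few for the filter, and with no filter the log2 fold-change was 0.68 (standard error 0.47).

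Of the 9 members, 5 passed the filter on low counts, 4 did not, and 2 of these 4 had no reads. C3 and C1s passed it only through their CD24+ libraries. Of the 5, C3, C1s, C1rl and C1ra were called higher, none was called lower, and Cfb was not called. Since the members were chosen on this contrast, the count is set beside the 23.8% of all tested genes called higher and nothing is read from it. The log2 fold-changes of the 5 had a median of 1.57, where all tested genes had 0.02.

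Per kilobase of transcript, the members stood in another order in each group. In CD24+ cells C1ra was highest at 21.3 ± 3.84 CPM per kb, followed by C1s at 5.02 ± 1.63, C3 at 4.78 ± 0.519 and C1rl at 3.19 ± 0.240 CPM per kb (SD, n = 3 each). Below them were Cfb at 0.882 ± 0.0967, Cd59a at 0.535 ± 0.0729 and C4b at 0.0572 ± 0.0274 CPM per kb. C1s and C3 did not differ beyond their spread. In CD24- cells C1ra was again highest, at 10.7 ± 2.63 CPM per kb, and the next were C1rl at 1.08 ± 0.348, C1s at 0.705 ± 0.369 and Cfb at 0.596 ± 0.0918 CPM per kb, which overlapped. C3, at 0.0907 ± 0.0636 CPM per kb, was below all of these and close to C4b at 0.0586 ± 0.0229. The Cfb values count all reads with its annotation, of which 68.1% in CD24- and 63.7% in CD24+ libraries lay in no Cfb transcript. The place of Cfb in either order is therefore uncertain, as is that of C4b, which had no read that matched it alone.

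**Figure D3:**
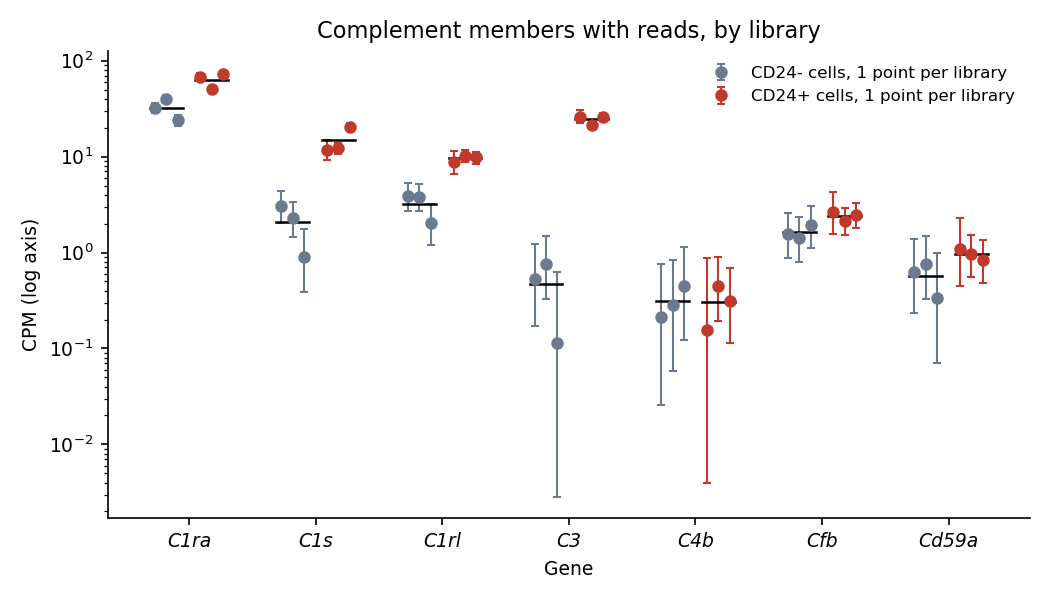
CPM of the 7 members with reads on a log axis, 1 point per library, with CD24- libraries left and CD24+ libraries right for each gene. Bars are exact 95% Poisson intervals of the read count, and black lines are group means. C3 lay near the level of Cd59a in the CD24- libraries and at 24.5 CPM in the CD24+ libraries, while C4b did not separate the groups.

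The sequence upstream of the start of C3, C1s and C1rl is shown because C/EBP, STAT and NF-kappaB factors are known to act on complement promoters. Each line holds the 250 bases before a RefSeq start on the strand of the gene (GRCm38.p6), with motif matches in capitals. C4b, Cfb and Serping1 had no entry. C1ra, the fourth member called higher, is not shown because the 250 bases before its RefSeq start, at chr6:124512371-124512620, reach into its GENCODE gene, which begins at 124512405.
C3, chr17:57228137-57228386, minus strand: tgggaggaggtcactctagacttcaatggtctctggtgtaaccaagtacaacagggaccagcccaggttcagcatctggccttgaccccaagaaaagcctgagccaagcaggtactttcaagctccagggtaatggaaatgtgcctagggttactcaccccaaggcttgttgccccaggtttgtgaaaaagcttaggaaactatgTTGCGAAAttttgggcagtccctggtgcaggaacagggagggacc
C1s1, chr6:124542360-124542609, minus strand: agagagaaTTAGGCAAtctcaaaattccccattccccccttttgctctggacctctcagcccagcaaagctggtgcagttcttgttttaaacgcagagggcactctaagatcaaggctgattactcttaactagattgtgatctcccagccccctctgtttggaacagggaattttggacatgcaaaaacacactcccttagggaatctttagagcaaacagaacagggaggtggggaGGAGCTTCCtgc
C1rl, chr6:124492863-124493112, plus strand: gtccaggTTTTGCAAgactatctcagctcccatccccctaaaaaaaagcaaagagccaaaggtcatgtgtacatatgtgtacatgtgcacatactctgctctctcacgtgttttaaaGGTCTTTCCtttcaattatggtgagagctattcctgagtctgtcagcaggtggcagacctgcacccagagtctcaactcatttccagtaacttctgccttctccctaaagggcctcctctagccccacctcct
Both strands of the window from 250 bases before to 50 bases after the start were searched. The C/EBP motif, TTGCNNAA, was in 10.8% of 32851 RefSeq promoters, the STAT motif GAS, TTCNNNGAA, in 8.30%, the core of the ISRE, GAAANNGAA, in 8.56%, and the kappa-B motif, GGNNNTTCC, in 18.5%. The C3 window held a C/EBP match that begins 45 bases upstream of the start and no other. C1s1 (C1s in the deposited files) and C1rl each held a C/EBP match, 242 and 243 bases upstream, and a kappa-B match, 12 and 133 bases upstream. C1s1 has a second RefSeq start, whose window held the same kappa-B match, 50 bases upstream, and no C/EBP match. C1ra held no match upstream of its RefSeq start, but a C/EBP match 16 bases and a GAS match 32 bases downstream of the start, with no overlap between motifs. Cd59a held an ISRE core match and Cd55 a kappa-B match. A match describes these letters only and is no evidence of binding.

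Other genes of the pathway were read from a list of 46 further complement genes, of which 27 had reads annotated with a current or older symbol that was searched for, and 10 of these were tested. In CD24+ cells 2 were called higher, 5 were called lower and 3 were not called, where 23.8% and 22.3% of all tested genes were called higher and lower, and the median log2 fold-change was -0.62 against 0.02. Of the genes called lower, Itgam and Cd46 passed the filter on low counts only through their CD24- libraries, so the count is a description. Masp1, a protease of the lectin pathway, rose 3.60 on the log2 scale, from 3.52 ± 1.46 to 42.9 ± 10.8 CPM (SD, n = 3 each; edgeR adjusted p = 3.17e-06). Fcna, a ficolin that recognises sugars for the lectin pathway, rose from 1.38 ± 0.537 to 3.23 ± 0.967 CPM (edgeR log2 fold-change 1.23, adjusted p = 0.015), a call lost without CD24- replicate 2 (1.09, adjusted p = 0.0601) or CD24+ replicate 3 (0.91, adjusted p = 0.0902).

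The genes that fell were receptors, regulators and properdin. Itgam and Itgb2, the chains of the receptor for the C3 fragment iC3b, both fell. Itgam had 3.79, 4.45 and 3.27 CPM in CD24- replicates, and the CD24+ libraries held 1 read in all, on which the fitted size rests (log2 fold-change -6.85, adjusted p = 3.58e-06, edgeR). Without CD24+ replicate 2 it was -6.26 and without CD24+ replicate 3 -8.36. Only 33.6% of its 113 reads matched Itgam alone, and 57.5% matched several genes. Itgam passed the filter on low counts only through its CD24- libraries. Itgb2 fell from 242 ± 55.9 to 117 ± 26.7 CPM (log2 fold-change -1.05). Clu, clusterin, an inhibitor of the terminal complex, fell from 235 ± 64.2 to 98.2 ± 24.0 CPM (edgeR log2 fold-change -1.27, adjusted p = 0.000884).

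Cfp, properdin, which stabilises the alternative convertase, fell from 6.53 ± 1.72 to 2.67 ± 1.09 CPM (edgeR log2 fold-change -1.17, adjusted p = 0.00777), with 55.5% of its reads in no transcript. Cd46, a membrane cofactor for C3b cleavage, had 1.72 ± 0.161 and 0.754 ± 0.401 CPM (edgeR log2 fold-change -1.002, adjusted p = 0.0405), and 22.7% of its 88 reads were its own. Cd46 passed the filter on low counts only through its CD24- libraries. The Cd46 call was lost under DESeq2 (adjusted p = 0.101) and without CD24- replicate 1, 2 or 3 or CD24+ replicate 1 or 2, with log2 fold-changes from -1.07 to -0.82 and adjusted p from 0.0609 to 0.126. Cr1l, another membrane regulator, had 3582 reads and was not called, at 54.1 ± 5.98 and 48.0 ± 3.24 CPM (edgeR log2 fold-change -0.18, adjusted p = 0.191). Of the Cr1l reads 57.4% matched Cr1l alone and 38.0% matched several genes. C1qbp, a mitochondrial protein that binds C1q, had the most reads of the list and was not called, at 196 ± 3.79 and 165 ± 19.1 CPM (adjusted p = 0.054, edgeR).

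The receptors of the C3a and C5a fragments, named after their values were seen, held too few reads to be tested. C3ar1 had 0.842, 0.474 and 1.69 CPM in CD24- replicates and 0, 0.113 and 0 CPM in CD24+ replicates, and C5ar1 had 1 read in all. C5ar2, the other C5a receptor (Gpr77 in the files), ran the opposite way, with 0.105, 0.0948 and 0 CPM in CD24- replicates and 0.315, 0.395 and 0.471 CPM in CD24+ replicates. The values of C3ar1 and C5ar2 rest on 30 and 20 reads in all, so nothing is read from them. Masp2 was not called (log2 fold-change -0.01), but 44.7% of the reads with its annotation matched Tardbp alone and 0.118% matched Masp2 alone, so that this annotation does not measure Masp2. No read carried a symbol searched for the other 19 listed genes. For 17 of them, among these C1qa, C1qb and C1qc, the subunits that recognise antibody in C1, no read matched their transcripts alone either. The other 2 were the copies C1rb and C1s2 described above, which are therefore not among the genes counted as tested. EG317677, the annotation of the C1s2 reads, was counted among the neighbours below and was not called (log2 fold-change 0.15, adjusted p = 0.807, edgeR).

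**Figure D4:**
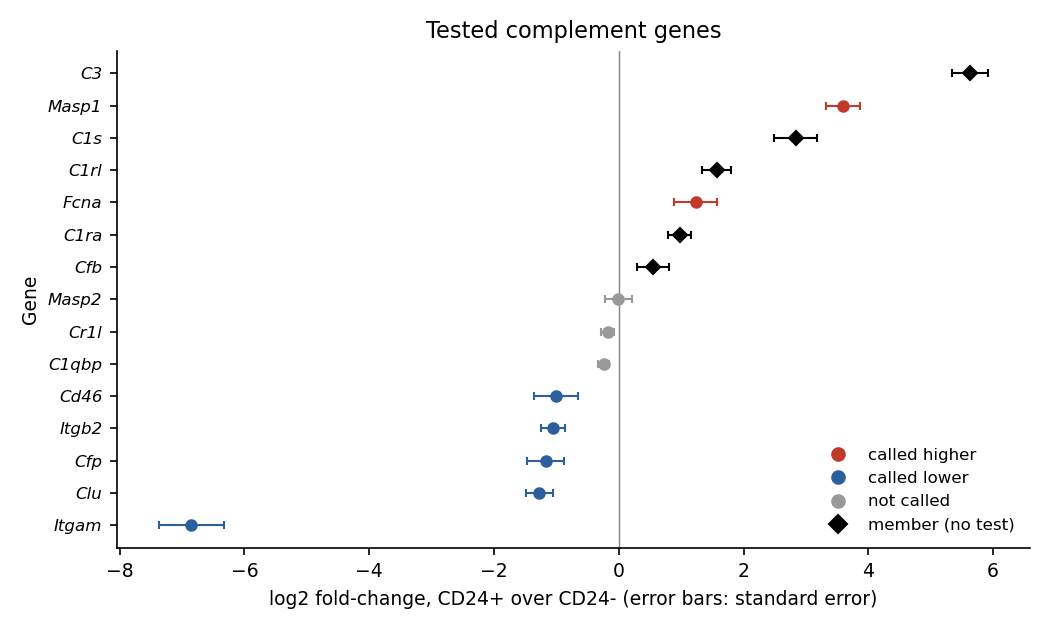
Log2 fold-change of CD24+ over CD24- with its standard error for the 5 tested members (diamonds, no test) and 10 other tested complement genes (circles, coloured by the edgeR call). C3 had the highest value at 5.63, followed by Masp1, and Itgam the lowest at -6.85.

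Of 33 cytokine receptors, ligands and transcription factors known to act on complement genes, 27 were tested, 10 were called higher and 2 lower, where 23.8% and 22.3% of all tested genes were, and the median log2 fold-change was 0.21 against 0.02. Osmr, the oncostatin M receptor, rose from 1.44 ± 0.418 to 15.6 ± 2.31 CPM (SD, n = 3 each; edgeR log2 fold-change 3.47, adjusted p = 1.14e-06). Il6st, the gp130 chain shared by receptors of the interleukin-6 family, rose from 75.8 ± 3.56 to 140 ± 4.07 CPM (log2 fold-change 0.89). Il6ra, the interleukin-6 receptor, was not called, at 120 ± 4.70 and 127 ± 8.53 CPM (edgeR log2 fold-change 0.09, adjusted p = 0.399), and Lifr, the receptor of Lif, had 1 read by exact match and none by annotation. Both chains of the interferon gamma receptor rose, Ifngr1 with a log2 fold-change of 1.49 and Ifngr2 with 0.91. The listed ligands other than Lif had too few reads to be tested. Il6 had none by annotation or by exact match, and Il1a, Il1b and Tnf had 8, 3 and 2 reads in all libraries.

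Among the factors, Cebpd rose from 1.28 ± 0.258 to 6.65 ± 1.22 CPM (edgeR log2 fold-change 2.38, adjusted p = 4.03e-05) and Cebpb from 58.4 ± 5.06 to 149 ± 34.3 CPM (log2 fold-change 1.34). Relb (1.56) and Irf1 (0.74) also rose, as did Socs3, the feedback inhibitor of gp130 signalling (1.25), and Nfkb2 rose by less (0.40). Stat3 fell by 0.34 on the log2 scale (adjusted p = 0.0108, edgeR) and Lif, a ligand of the interleukin-6 family, fell by 0.35 (adjusted p = 0.0276, edgeR). The call of Nfkb2 was lost without CD24- replicate 2, CD24+ replicate 1 or CD24+ replicate 3 (log2 fold-change 0.32 to 0.34), that of Stat3 without CD24- replicate 2 (-0.28), and that of Lif without CD24- replicate 2 (-0.31) or CD24+ replicate 2 (-0.23). Jak1, the kinase with the most reads of the list, was not called, at 331 ± 14.6 and 298 ± 11.1 CPM (adjusted p = 0.132, edgeR).

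Of 20 secreted or membrane proteins of the acute-phase response, to which C3 also belongs, 5 were tested, 3 were called higher and 1 lower, where 23.8% and 22.3% of all tested genes were. Of these Lbp and Lcn2 passed the filter on low counts only through their CD24+ libraries, so the count is a description. Without CD24+ replicate 1 it was 3 higher and 3 lower of 6 tested. In the main fit 15 of the 20 genes had too few reads to be tested, and 9 of them had no annotated reads, among these Hp, Saa2, Fga and Crp. Cd14 was tested and not called (edgeR log2 fold-change -0.21, adjusted p = 0.201). Cp, ceruloplasmin, had the most reads and rose from 46.1 ± 11.9 to 544 ± 126 CPM (SD, n = 3 each; edgeR log2 fold-change 3.56, adjusted p = 6.86e-07). Cp had a log2 fold-change of 2.53 when repeats of a sequence were counted once. Lbp, which binds lipopolysaccharide, rose from 0.593 ± 0.536 to 10.4 ± 4.23 CPM (log2 fold-change 4.05, or 4.74 without CD24- replicate 2), and Lcn2, which binds siderophores, from 0.503 ± 0.267 to 4.61 ± 2.30 CPM (log2 fold-change 3.05). Orm2 had a log2 fold-change of -0.93 (adjusted p = 0.0292, edgeR), with 81.4% of its reads in no transcript, and this call was lost without CD24- replicate 1 or 2 or CD24+ replicate 2 or 3, with values from -0.93 to -0.72, under DESeq2 (adjusted p = 0.0762) and with repeats of a sequence counted once (adjusted p = 0.0565, edgeR).

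**Figure D5:**
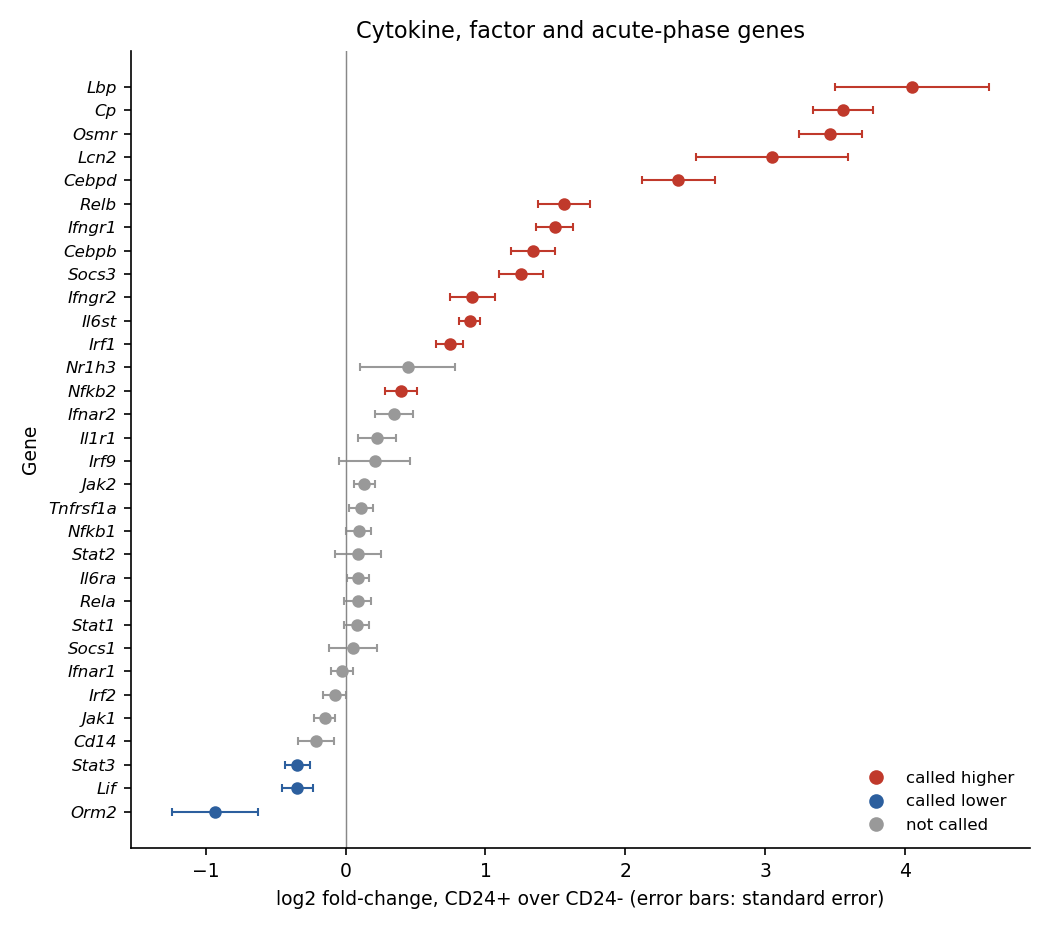
Log2 fold-change of CD24+ over CD24- with its standard error for the 27 tested cytokine and factor genes and the 5 tested acute-phase genes, coloured by the edgeR call. Lbp, Cp, Osmr and Lcn2 lie above 3, and most genes that were not called lie near 0.

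The neighbours of the members on the chromosome did not share one direction. Of the 28 nearest tested genes, 3 on each side of a member by read position in mm9, 2 were called higher, 10 were called lower and 16 were not called, where 23.8% and 22.3% of all tested genes were called higher and lower, and the median log2 fold-change was -0.04 against 0.02. Slc25a23 passed the filter on low counts only through its CD24+ libraries (0.518 ± 0.0839 CPM in CD24- and 2.83 ± 1.29 CPM in CD24+ cells). Clec4d passed it only through its CD24- libraries (1.62 ± 0.514 and 0.149 ± 0.215 CPM), so the count is a description. Beside C3, Slc25a23 rose with a log2 fold-change of 2.42, while Tnfsf9 (-0.71), Khsrp (-0.45) and Trip10 (-0.25) fell and Gpr108, the nearest at 18.7 kb, had 0.11. On the lower side of the chromosome 6 cluster, Pex5 (-0.28) and Cd163 (-0.50) fell, as did Clec4d (-3.05), which lay at least 1238 kb away and had -4.997 without CD24+ replicate 2. Near C4b and Cfb, Tnxb (-1.23), Neu1 (-0.50) and Ehmt2 (-0.40) fell. Near Cd59a, Caprin1 rose (0.29) and Cstf3 fell (-0.35). The calls of Trip10, Pex5, Caprin1 and Cstf3 were each lost with some libraries left out: Trip10 without CD24- replicate 2 or 3 or CD24+ replicate 3 (-0.27 to -0.20), Pex5 without CD24- replicate 1 (-0.26) or CD24+ replicate 3 (-0.29), Caprin1 without CD24- replicate 1 or 2 or CD24+ replicate 2 or 3 (0.21 to 0.30, and 0.026 when repeats of a sequence were counted once, edgeR adjusted p = 0.906), and Cstf3 without CD24- replicate 1 or 2 or CD24+ replicate 1 or 3 (-0.35 to -0.25).

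By the distance of the mean-centred log2 CPM profile over the 6 libraries, the genes most like C3 among those whose mean log2 CPM reached 3 were Angpt1 (distance 1.62), Ogn (1.68), Sema3c (1.86), Trim35 (1.88) and Pcdh7 (1.90). This minimum was set on the mean of the 6 log2 values, not on the average log2 CPM used for the rank of C3. C3 itself lay below it, at 0.466 CPM in CD24- and 24.5 CPM in CD24+ cells. Genes at the level of C3 were therefore not among those searched. Angpt1, which encodes angiopoietin, had 4.02 CPM in CD24- and 82.9 CPM in CD24+ libraries, and Ogn, which encodes a small matrix proteoglycan, 4.54 and 88.7 CPM (log2 fold-change 4.25, or 3.53 when repeats of a sequence were counted once). Their log2 fold-changes lay between 4.25 and 4.78, and C3 itself lay above them. The distance favours genes that rose by an amount near that of C3, so these sizes follow in part from the search.

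Markers of cell types that make complement also differed between the groups. The labels call the cells mammary epithelial cancer cells. The 8 epithelial markers summed to 1847 to 2040 CPM in CD24- and 759 to 902 CPM in CD24+ libraries, almost all from Krt8 and Krt18. The 3 tested, Krt8, Krt18 and Krt19, were called lower, where 22.3% of all tested genes were, and Epcam, Cdh1 and Cldn7 were near 0, with 6, 2 and 1 reads in all libraries. Of the 8 fibroblast markers, 5 were tested and all 5 were called higher, where 23.8% of all tested genes were. Dcn, Col1a1 and Col1a2 were near or under 1 CPM in CD24- cells and passed the filter through their CD24+ libraries, so nothing is read from the count. All 8 summed to 9.13 to 16.0 CPM in CD24- and 64.8 to 97.9 CPM in CD24+ libraries. Pdgfrb had 4.81 CPM in CD24- cells and, with 66.6 CPM, made up most of the sum in CD24+ cells, while Lum and Thy1 had no reads by annotation or by exact match. The part of these differences in the values of C3, C1s, C1rl and C1ra was not tested.

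Of the 10 macrophage markers, 2 were tested and both, Cd68 and Itgam, were called lower, where 22.3% of all tested genes were. Itgam passed the filter only through its CD24- libraries. All 10 summed to 46.99 to 81.1 CPM in CD24- and 7.51 to 9.91 CPM in CD24+ libraries, almost all from Cd68, with means of 64.6 and 8.15 CPM. Adgre1 and Tyrobp had no reads by annotation or by exact match, and Ptprc, Csf1r and Lyz2 had 2, 6 and 3 reads in all libraries. The 5 endothelial markers summed to 2.25 to 3.98 CPM in CD24- and 0.681 to 1.89 CPM in CD24+ libraries. Of the 2 tested, Cdh5 was called lower, where 22.3% of all tested genes were, and Tek was not called. Cdh5 passed the filter only through its CD24- libraries, and 76.2% of the reads annotated to Tek matched Larp4 alone.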

How the data were processed

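Reads (51-bp, single-end) from 6 libraries of Mvt1 cells had 2 nt trimmed from each end. The authors collapsed identical 47-nt reads, mapped each sequence to the genome by exact match and gave it 1 annotation by a hierarchy, and deposited the raw count of each sequence per library. The submitters' processing notes name mm9. The mapper is not given in the sources used here, nor is the annotation's origin. Exact matching misses most reads across exon junctions.

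Here the deposited counts were summed per annotated gene (C1ra is named C1r in the files). Genes passing filterByExpr were tested with edgeR 4.0.16 (TMM, quasi-likelihood, Benjamini-Hochberg, threshold 0.05) in R 4.3.3, with all 6 libraries and no covariate, and standard errors were taken from the F statistic. Genes were checked for exact matches to GENCODE M21 transcripts, and 2 of the 3644 C1ra reads with an uncalled base were left out there. No pair of libraries of 1 group agreed within sampling noise (chi-square per degree of freedom 1.75 for CD24- replicates 1 and 2 and 9.69 to 15.9 for the other pairs), so none was treated as a repeat deposit. Script steps were tested on simulated data. The members and gene lists (other complement, cytokine and factor, acute phase, and macrophage, fibroblast, epithelial and endothelial markers) were chosen with earlier results of these data known. Of the other complement list, 1 gene is not reported here and is left out of its counts. Genes named are the members, all called genes of the non-marker lists and neighbours, the gene with most counts of each list, the 5 profiles nearest to C3, Cd24a and markers. Masp2, Cr1l, C4a, Cd14, Il1a, Il1b, Tnf, Il6ra, Lifr, Gpr108 and the receptors C3ar1, C5ar1 and C5ar2 fall outside this rule and were named after their values were seen, as were listed genes named for having no reads. The alternatives were DESeq2 1.42.0, no TMM, no filter, each distinct sequence counted once, reads of 1 GENCODE gene only, median coverage with quantile normalization and a regularizer of 10 in limma 3.58.1, a replicate block, and each library left out.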

Additional observations from a re-analysis of the deposited data

How the results depend on the processing

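The counts of called genes, members, other complement, cytokine and factor, acute-phase and flanking genes were recomputed under every alternative, and those of the marker lists were not. Of 78 such counts 71 stayed within 1.5 times. Without a filter on low counts 11 other complement genes were called, against 7, and the other 6 counts came from the estimate by median coverage, which was made over GENCODE transcripts with a regularizer of 10 and so shrinks low genes by construction. It called 3237 of 9618 tested genes, both of the 2 members tested (C3 and C1rl), 4 of 5 other complement genes, 6 of 22 cytokine and factor genes, 2 of 3 acute-phase genes and 4 of 21 flanking genes. There C3 had a log2 fold-change of 0.21 and C1rl of 0.14. Other settings gave 4955 called genes (DESeq2), 5164 (without TMM), 5493 (no filter), 3695 (distinct sequences) and 5526 (reads of 1 gene). With single libraries left out, the counts ranged from 4069 to 5358 called genes, 5 to 8 other complement genes, 10 to 12 cytokine and factor genes, 3 to 6 acute-phase genes and 8 to 14 flanking genes, and 4 members were called each time. The members were chosen on this contrast, so nothing is read from their counts under any setting. Single values were recomputed for the 5 tested members, the called genes of the same lists and neighbours, and the 5 genes most like C3, and none of these changed direction. Of 505 such values of genes other than members, 57 no longer passed the threshold, among them Fcna, Cd46, Stat3, Nfkb2, Ifngr2, Lif, Orm2, Trip10, Neu1, Pex5, Caprin1 and Cstf3 (the cause was not tested). The groups share replicate numbers in the sample titles, but the values showed no pairing of plates by number. Deviations from group means correlated at 0.0143, -0.2511 and -0.3095 for replicates 1, 2 and 3. With 3 libraries per group these correlations cannot exclude a pairing. With the replicate block 4493 genes were called, 6 of them other complement genes, the calls of Cd46, Orm2, Trip10, Pex5 and Caprin1 were lost, and the log2 fold-change of C3 was 5.63. Depth limits the members with few reads, C4b, Cd59a, Cfb and C3 in CD24- cells.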
